A study of Mus musculus with 18 samples.

Results

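Fgf2 and 7 other genes of fibroblast growth factor (FGF) signalling were followed in whole brain, kidney and liver of the inbred mice DBA/2J and C57BL/6J. The genes were chosen by symbol in the platform annotation. They were the ligands Fgf2, Fgf1 and Fgf21, the receptors Fgfr1, Fgfr2, Fgfr3 and Fgfr4, and the co-receptor Klb. All 8 were on the arrays, on 9 of the 21765 spots used, and they made up 8 of 20218 measured features, of which 15095 were named genes. Their strain ratios were known when they were chosen, so these are given as a description without a test.

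The study hybridised 18 two-colour glass arrays, 6 per tissue. On each array total RNA of DBA/2J, labelled with Alexa Fluor 647, was compared with total RNA of C57BL/6J, labelled with Alexa Fluor 555. Each pool held RNA of 10 mice (brain, kidney) or 9 mice (liver), and the arrays of a tissue repeated 1 pair of pools. The age and sex of the mice were not given in the sources used here. Both strains were untreated as far as the labels say, and no genotype other than the strain was given.

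No dye was swapped, so strain and dye cannot be told apart. All 6 arrays of a tissue shared their pools, so an SD or p-value measures the spread between hybridisations and not between mice. Precision is limited by the number of arrays, 6 in each tissue. In whole tissue, fewer cells of a type and less RNA per cell cannot be told apart. A strain ratio is the log2 ratio of DBA/2J over C57BL/6J after normalisation, and a positive value stands for more RNA in DBA/2J. No file states that direction, which was taken from the dye order and is only likely. Glo1, which is duplicated in DBA/2J, stood at 0.65 ± 0.14 in brain, 0.79 ± 0.34 in kidney and 0.91 ± 0.15 in liver (SD, n = 6 arrays). As deposited, array medians ran from -1.65 to 0.16. Once normalised, brain arrays correlated with each other by 0.382 on average across spots, kidney arrays by 0.629 and liver arrays by 0.474. Of 7 measured marker genes per organ, the brightest signal was in the labelled organ for 7 brain, 5 kidney and 6 liver markers. The exceptions were Aqp2 and Slc22a6 of kidney and Serpinc1 of liver.

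FGFs are secreted proteins that bind receptor tyrosine kinases on the cell surface. Paracrine members such as Fgf1 and Fgf2 need heparan sulphate to bind, whereas the hormones Fgf21 and Fgf15 need a Klotho protein, with beta-Klotho (Klb) serving in liver and fat. Activated receptors signal through the RAS and MAP kinase cascade, which switches on ETV transcription factors and the feedback inhibitors of the Sprouty, Spred and Dusp families. Fgf2 acts as a survival and growth factor for neurons, glia, endothelium and fibroblasts, and in liver the Fgfr4 and Klb pair carries the FGF15 signal that lowers bile acid synthesis.

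Fgf2 in liver was the outstanding value among the 8 genes. Its strain ratio was 3.46, 0.56, 2.93, 3.39, 2.43 and 1.95 on liver arrays 1 to 6. All 6 arrays were above 0, array 2 was far below the others, and arrays 1 and 4 were the highest. The mean was 2.45 ± 1.09 (SD, n = 6 arrays), or 5.47-fold higher signal in DBA/2J. This was the highest mean of the 20218 features in liver, or the lowest were the ratio turned, ahead of Mt1, a metallothionein, at 1.90 ± 0.28. Without array 2 the mean became 2.83, and leaving out each array in turn gave 2.25 to 2.83. The 7 other ways of normalising or summarising the data gave 2.44 to 2.56.

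Brain and kidney did not share this value. In brain Fgf2 stood at -0.25, -0.17, -0.24, -0.18, -0.11 and 0.04 on arrays 1 to 6, with a mean of -0.15 ± 0.11. Kidney arrays gave 0.11, -0.53, -0.03, -0.50, 0.17 and 0.09, with a mean of -0.11 ± 0.32. Kidney arrays 2 and 4 were low, and the other 4 lay near 0. In order of strain ratio liver came first, and brain and kidney differed by less than their spread. The lowest liver array, at 0.56, still lay above the highest array of brain and of kidney. The share of all features without such overlap was not counted. A limma adjusted p under 0.05 was found for 7.52% of all features for brain minus liver and 18.2% for kidney minus liver. With 1 loess curve per array the kidney mean was 0.15 and the brain mean -0.02, and with blocks centred on their medians these were -0.55 and -0.28.

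**Figure D1:**
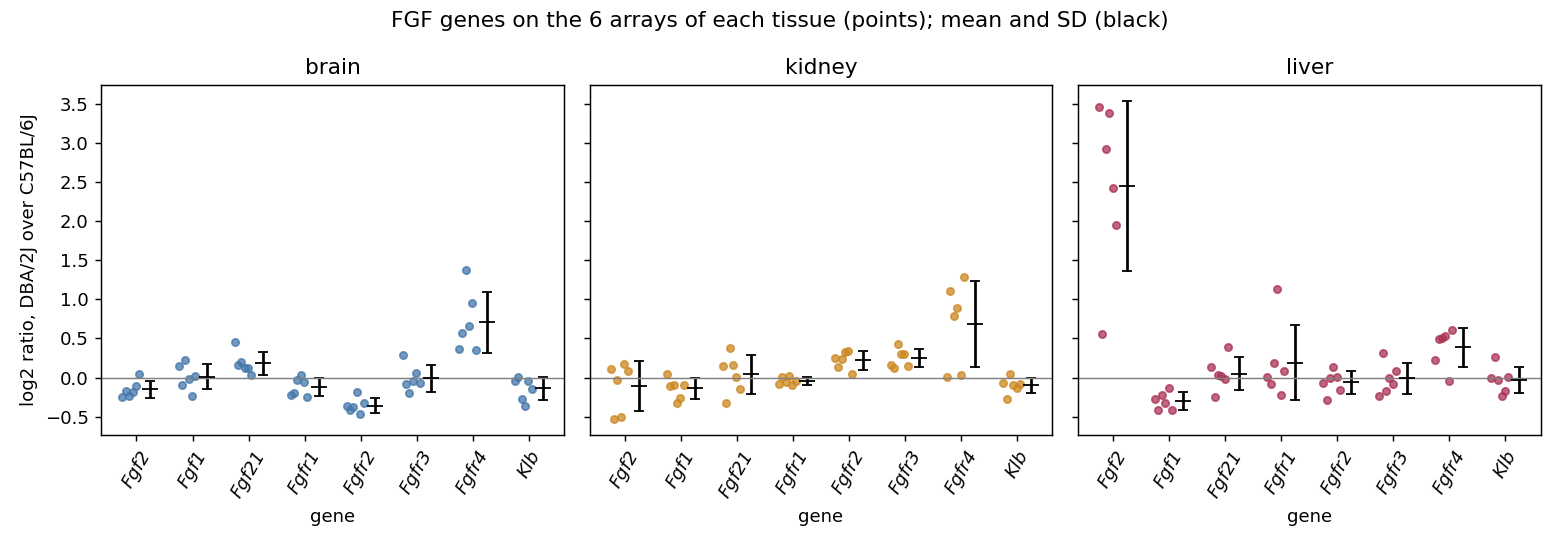
Strain ratio (log2, DBA/2J over C57BL/6J, y axis) of the 8 genes in brain, kidney and liver; points are the 6 arrays of each tissue and black bars their mean and SD. Fgf2 in liver lies at 2.45 ± 1.09, and the other means run from -0.36 to 0.71.

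The same contrast was present in the deposited values, before any normalisation here. As deposited, Fgf2 stood at 1.89, -0.41, 1.79, 2.60, 1.76 and 1.04 on liver arrays 1 to 6, where the medians of all spots were -1.65, -1.18, -1.13, -0.89, -0.77 and -1.06. Array 2 was thus the only liver array with a deposited value below 0, and it too lay above its own median. On liver arrays 1, 3 and 4 no spot of the 21765 had a higher deposited ratio. On array 5 a higher ratio was found for 2 spots, on array 6 for 3 and on array 2 for 442. The deposited values are logs of ratios of whole numbers. In lowest terms DBA/2J to C57BL/6J was 907 to 244 on array 1, 61 to 81 on array 2 and 962 to 279 on array 3. Arrays 4, 5 and 6 gave 867 to 143, 265 to 78 and 33 to 16.

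**Figure D2:**
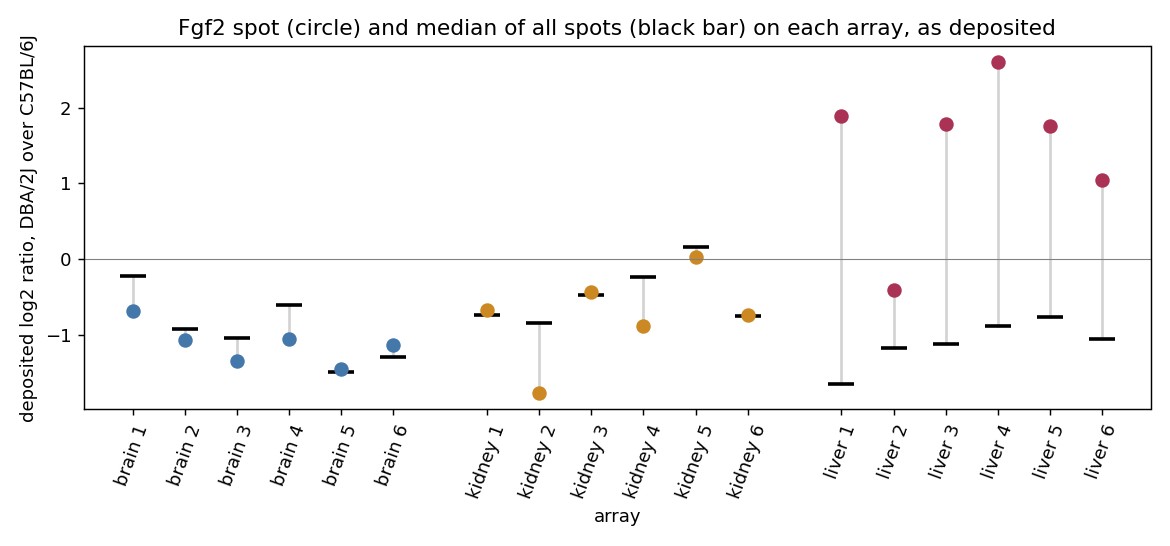
Deposited log2 ratio of the Fgf2 spot (circles, y axis) and the median of all spots (black bars) on each of the 18 arrays (x axis). On all 6 liver arrays the spot lies above its array's median, while on brain and kidney arrays it lies near or below it.

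Liver array 2 was low for other genes too. Over the 119 features whose mean on the other 5 liver arrays was at least 2-fold, array 2 showed a median share of 0.496 of that mean. The same share for the other liver arrays, each against its own remaining 5, ran from 0.904 to 1.16. Its part in the Fgf2 value was not tested beyond the mean without it, given above.

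The 2 channels of the Fgf2 spot were then placed among all spots. Signal strength was expressed as a percentile of the estimated spot intensity, which describes the spot and not the abundance of the RNA. In liver the Fgf2 spot lay at percentile 87.2 in the DBA/2J channel and at 13.9 in the C57BL/6J channel. In brain the channels lay at 15.2 and 15.7, and in kidney at 26.9 and 19.8. The C57BL/6J channel was thus dim in all 3 tissues, and the DBA/2J channel was bright in liver and dim in brain and kidney. The table holds no background values, so whether the dim channel was above background was not tested, and the liver fold rests on that channel.

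**Figure D3:**
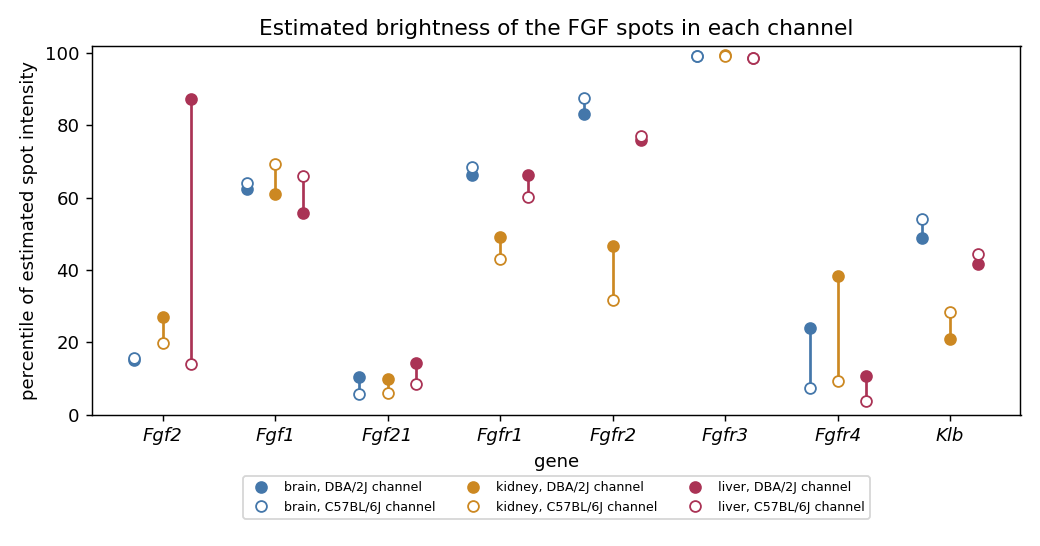
Percentile of estimated spot intensity (y axis) of each gene's spot in the DBA/2J channel (filled) and the C57BL/6J channel (open) for the 3 tissues, with Fgf1 as the mean of its spots. The liver Fgf2 spot spans 13.9 to 87.2, whereas the Fgfr3 spot is near the top in every tissue.

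Fgf2 lies on chromosome 3, from 37348477 to 37410106 on the forward strand (GRCm38.p6). The 74 bases before its annotated start are shown because they flank the gene with the highest liver ratio. They come from the RefSeq upstream window and represent the C57BL/6J reference, and the DBA/2J sequence was not analysed here.
Fgf2 upstream, chr3:37348403-37348476, forward strand: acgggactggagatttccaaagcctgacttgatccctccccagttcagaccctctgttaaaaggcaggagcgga
GC content was 54.1%. The letters of a TATA box (TATAAA), a GC box (GGGCGG) and a CCAAT box (CCAAT) were searched on both strands, and none was in these 74 bases. Of the 32851 windows of all genes at the same place and length, 4.0%, 7.58% and 10.1% held these letters.

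The nearest genes on each side of Fgf2 that a named spot measured were also described. Fgf2 had the highest liver mean of all features, so lower ratios of these genes follow from its rank. Nudt6, which overlaps Fgf2 on the opposite strand, was not analysed here, and without the spot sequences its RNA cannot be told apart from that of Fgf2. On the side of lower coordinates are Il21, 115841 bases away, and Il2, 222523 bases away, both encoding T-cell cytokines. On the other side are Spata5, 9797 bases away, and 4930594O21Rik, 199785 bases away. In liver Il2 was higher in DBA/2J on 6 of 6 arrays, by 0.43 ± 0.07 (limma adjusted p = 0.000767), and in brain by 0.76 ± 0.24 (limma adjusted p = 0.000628). The liver value of Il2 was 1.08 without loess, 1.05 with centred blocks, 1.09 with 1 loess curve per array and 0.90 with intensity left unrestored. Il21 was lower in liver on 5 of 6 arrays, at -0.34 ± 0.24 (limma adjusted p = 0.0164), and the call ended without array 3, at -0.31, or array 4, at -0.32. Spata5 stood at -0.11 ± 0.21 in liver and 4930594O21Rik at -0.24 ± 0.21, and neither passed the threshold of 0.05 on the adjusted p (0.365 and 0.0501). The value of 4930594O21Rik passed without array 4, at -0.31, with centred blocks, at -0.29, and with intensity left unrestored, at -0.24. With 1 loess curve per array it was -0.07 and did not pass. The Il2 spot was dim, at percentiles of 0.366 to 3.79 over the tissues.

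Over all 18 arrays, the named genes nearest to Fgf2, with unnamed spots left out, were ranked by root mean square distance between strain ratios. The nearest was Apcs, which encodes serum amyloid P, at a distance of 0.684 log2 units. Acta1 (skeletal muscle actin), Mt1, Stk32c (a kinase) and Msmo1 (a sterol synthesis enzyme) followed at 0.737, 0.761, 0.83 and 0.885. Pearson's r over the 18 arrays was 0.911, 0.886, 0.844, 0.87 and 0.888 in this order. These correlations rest on the gap between liver and the other tissues, and the arrays share pools within a tissue. The liver means of the 5 genes were 1.76 ± 0.31, 1.55 ± 0.75, 1.90 ± 0.28, 1.41 ± 0.68 and 1.27 ± 0.46. On array 2 Acta1 stood at 0.32 and Stk32c at 0.14, each the lowest of its 6 liver arrays, as for Fgf2. Mt1 at 1.86 on array 2 was not low there. The distance that picked these genes included array 2, so genes low on it were favoured and the shared low value is not independent.

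**Figure D4:**
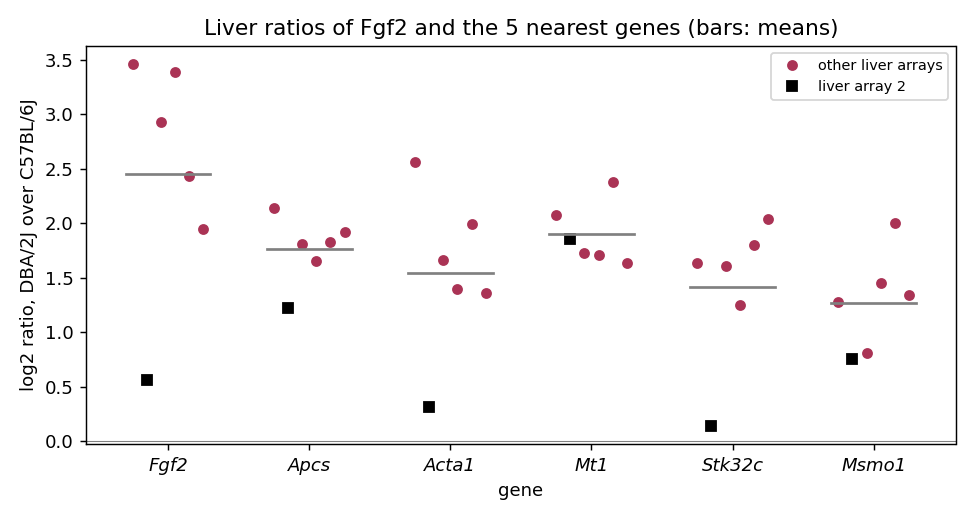
Strain ratio (log2, y axis) on the 6 liver arrays of Fgf2 and the 5 genes nearest to it over 18 arrays (x axis), with liver array 2 as black squares and grey bars for the means. Array 2 is the lowest point for each gene except Mt1, where it is 1.86, and it was among the arrays used to pick the genes.

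Fgf1, a ligand that binds all FGF receptors, gave small ratios. Its liver values were -0.27, -0.42, -0.22, -0.33, -0.14 and -0.41 on arrays 1 to 6, all below 0, with a mean of -0.30 ± 0.11 or 1.23-fold lower in DBA/2J. Brain arrays gave 0.15, -0.10, 0.23, -0.02, -0.23 and 0.02, on both sides of 0, with a mean of 0.01 ± 0.16. Kidney gave 0.04, -0.11, -0.10, -0.32, -0.26 and -0.09, with a mean of -0.14 ± 0.13.

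Fgf1 was the only one of the 8 genes with 2 spots, and these differed. The brighter spot averaged 0.07 in brain and 0.26 in kidney, and -0.16 in liver. The other averaged -0.05, -0.54 and -0.44. In kidney the spots had opposite signs, with SDs of 0.15 and 0.23 over arrays, so the kidney mean of Fgf1 describes neither of them. That mean also turned to 0.09 with centred blocks and 0.32 with intensity left unrestored. Only the liver direction was shared.

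Fgf21, the hormone that liver releases in fasting, showed no clear ratio in liver. It stood at 0.14, -0.25, 0.03, 0.02, -0.02 and 0.39 on liver arrays 1 to 6, with a mean of 0.05 ± 0.21. Kidney gave 0.15, -0.33, 0.38, 0.16, 0.01 and -0.15, with a mean of 0.04 ± 0.25. The kidney mean fell to -0.44 without loess, -0.68 with centred blocks and -0.31 with intensity left unrestored. In brain all 6 arrays lay above 0, at 0.46, 0.16, 0.20, 0.12, 0.12 and 0.03, with a mean of 0.18 ± 0.15. The brain mean became 0.02 without loess and -0.01 with blocks centred on their medians. The Fgf21 spot was dim in brain, kidney and liver, at percentiles of 7.69, 6.7 and 10.2.

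Among the receptors Fgfr4 stood out in brain and kidney. In brain its ratio was 0.36, 0.57, 1.37, 0.66, 0.95 and 0.35 on arrays 1 to 6, all above 0, with a mean of 0.71 ± 0.39 or 1.63-fold. Kidney arrays gave 0.01, 1.11, 0.79, 0.89, 0.03 and 1.29, with a mean of 0.69 ± 0.55 or 1.61-fold. Kidney arrays 1 and 5 lay at about 0 and the other 4 were at 0.79 or more. In liver, the tissue in which Fgfr4 is best known, the arrays gave 0.22, 0.49, 0.51, 0.53, -0.04 and 0.61, with a mean of 0.39 ± 0.25 or 1.31-fold. Array 5 was the only one of the 18 below 0. The array values of the 3 tissues overlapped.

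The Fgfr4 spot was dim. It lay at percentile 14.9 in brain and 26.0 in kidney but 5.75 in liver, so its signal was lowest in the tissue known for high Fgfr4. Without loess brain stood at 0.41, kidney at 0.28 and liver at 0.25, the lowest means of any setting tried. The means were above 0 in every setting that measured the gene, but their size depended on the loess step. The genes nearest to Fgfr4 over 18 arrays were Gad1os, Gpr162, 1700024B18Rik, Nat8 and Cgas, at root mean square distances of 0.372, 0.373, 0.375, 0.398 and 0.41. Their Pearson's r with Fgfr4 was 0.57, 0.507, 0.49, 0.39 and 0.585.

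Fgfr2, the receptor of epithelia and of oligodendrocytes, had opposite signs in brain and kidney. In brain it stood at -0.36, -0.42, -0.38, -0.19, -0.47 and -0.32, all below 0, with a mean of -0.36 ± 0.10 or 1.28-fold lower in DBA/2J. In kidney it stood at 0.25, 0.13, 0.24, 0.33, 0.34 and 0.04, all above 0, with a mean of 0.22 ± 0.12 or 1.17-fold higher. No brain array overlapped a kidney array, and the difference of the means was -0.58. The share of all features without overlap was not counted, but 22.7% had a limma adjusted p under 0.05 for brain minus kidney. Liver lay between brain and kidney at -0.07, -0.29, -0.01, 0.14, 0.01 and -0.16, with a mean of -0.06 ± 0.15. Over the 7 other settings brain ran from -0.40 to -0.27 and kidney from 0.13 to 0.27. Some glial markers were also lower in brain, as was the neuronal marker Syp. Of 7 brain markers 2 passed, both lower, beside 13.7% of all features. These were Mbp of oligodendrocytes at -0.23 (limma adjusted p = 0.0365) and Syp at -0.24 (limma adjusted p = 0.048). The 7 had a median of 0.02. Of 8 astrocyte markers 2 passed, both lower, beside 13.7% of all features, namely S100b at -0.48 and Glul at -0.94. The 8 had a median of -0.17 with array medians from -0.35 to -0.05. Gfap at 0.12 and Aldoc at 0.14 went the other way and did not pass. The part of these brain and astrocyte markers in the Fgfr2 value was not tested.

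Fgfr3, a receptor of astrocytes and of growth plate cartilage, was near 0 in brain and liver. Its brain values were 0.29, -0.08, -0.20, -0.04, 0.06 and -0.07 (mean -0.01 ± 0.17), and its liver values were -0.24, 0.32, -0.17, 0.00, -0.08 and 0.08 (mean -0.01 ± 0.20). Kidney gave 0.16, 0.12, 0.43, 0.30, 0.30 and 0.15, all above 0, with a mean of 0.25 ± 0.12 or 1.19-fold. This size rested on the loess step, since the kidney mean was 1.27 without loess and 1.45 with blocks centred on their medians. The spot was at percentiles of 99.3, 99.3 and 98.8 in brain, kidney and liver. Deposited kidney ratios correlated with intensity by up to 0.708 across spots.

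Fgfr1, the receptor most widespread in neurons and mesenchyme, was near 0 on nearly all arrays. Brain gave -0.22, -0.20, -0.03, 0.03, -0.06 and -0.25 (mean -0.12 ± 0.12). Kidney was the tightest of the 3 tissues, at -0.08, 0.01, -0.06, 0.02, -0.09 and -0.04 (mean -0.04 ± 0.05). Liver gave 0.01, -0.08, 0.19, 1.13, -0.22 and 0.09. The liver mean of 0.19 ± 0.48 rested on array 4, and the mean without it was -0.00.

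Klb, the co-receptor through which Fgf21 and Fgf15 act, was near 0 in liver, its main tissue together with fat. The liver arrays gave 0.00, 0.26, -0.03, -0.24, -0.17 and 0.01 (mean -0.03 ± 0.17). In brain Klb stood at -0.05, 0.01, -0.27, -0.36, -0.04 and -0.15 (mean -0.14 ± 0.15), and in kidney at -0.07, -0.27, 0.05, -0.10, -0.14 and -0.08 (mean -0.10 ± 0.10). The kidney mean became -0.56 without loess and -0.43 with centred blocks, and the brain mean became 0.12 with intensity left unrestored. Its spot lay at percentile 50.9 in brain, 22.6 in kidney and 42.5 in liver.

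Counted by the limma threshold used for all features, an adjusted p under 0.05, 2 of the 8 genes were called in brain, where 13.7% of all features were called. These were Fgfr4, higher in DBA/2J as were 7.48% of all features, and Fgfr2, lower as were 6.23%. In kidney 3 were called, all higher, namely Fgfr2, Fgfr3 and Fgfr4, where 39.5% of all features were called and 19.7% were called higher. In liver Fgf2 and Fgfr4 were called higher and Fgf1 lower, where 22.9% of all features were called, 10.8% higher and 12.1% lower. All 6 arrays had the same sign for Fgf21, Fgfr2 and Fgfr4 in brain, beside 18.1% of all features. The same held for Fgfr2, Fgfr3 and Fgfr4 in kidney, beside 34.6%, and for Fgf2 and Fgf1 in liver, beside 24.8%. Since these ratios were known when the genes were chosen, nothing is read from the counts. The 8 means had a median of -0.07 (brain), -0.00 (kidney) and 0.02 (liver), against 0.0 over all features in each tissue.

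The rest of the pathway was described from 7 lists of 101 genes, of which 85 were measured. In liver 19 of the 85 passed (22.4%), with 9 higher in DBA/2J and 10 lower, beside 22.9% of all features. In kidney 28 passed (32.9%), 14 higher and 14 lower, beside 39.5%. In brain 11 passed (12.9%), 2 higher and 9 lower, beside 13.7%. Over the 85 genes the median strain ratio was -0.07 (brain), -0.03 (kidney) and -0.05 (liver). The split moved in some settings, to 2 higher and 4 lower in brain with 1 loess curve per array, and in kidney to 22 and 38 with blocks centred on their medians and 12 and 23 with intensity left unrestored. Without liver array 5 the liver split was 5 and 13, without kidney array 5 the kidney split was 9 and 14, and without brain array 4 or 5 the brain split was 1 and 1 or 1 and 2. The brain count fell to 4, 4, 2, 3 and 4 genes without array 2, 3, 4, 5 or 6 in this order. Liver fell to 10 genes without array 3 and 9 without array 4.

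**Figure D5:**
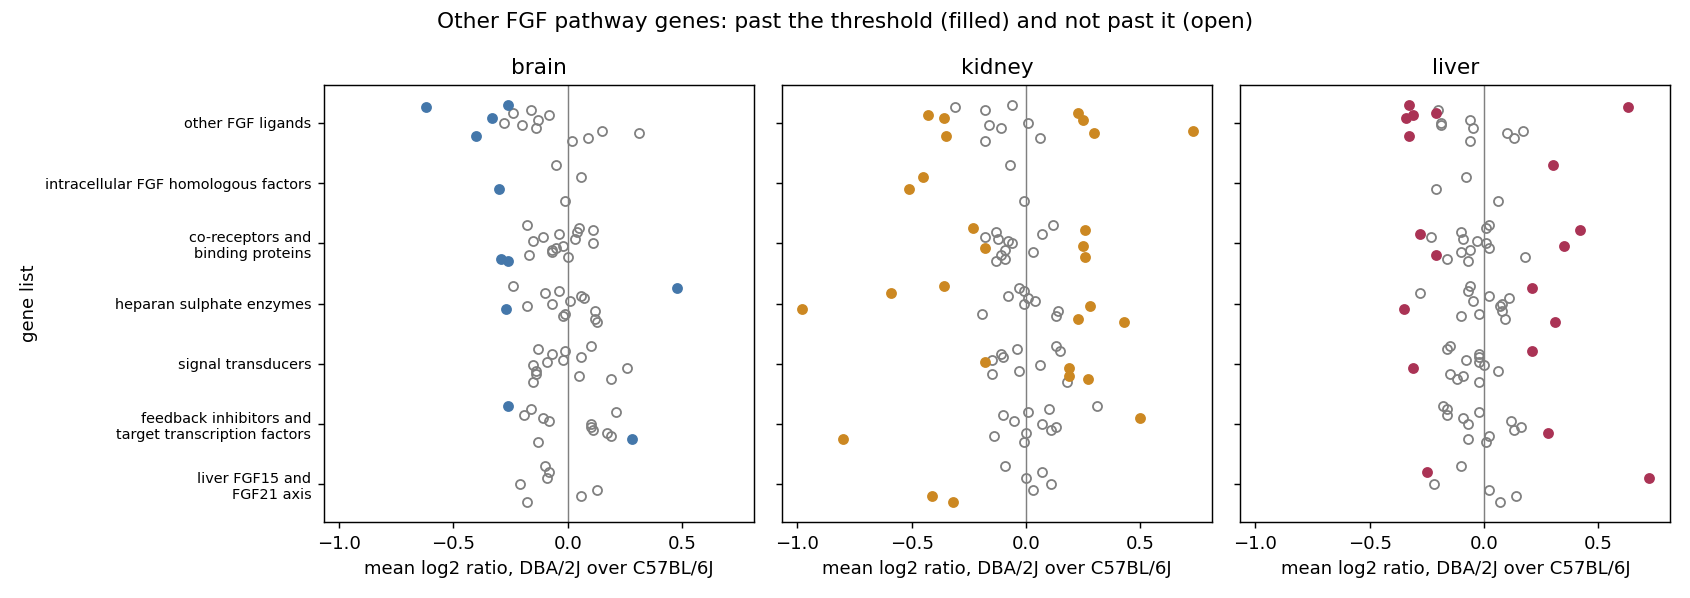
Mean strain ratio (log2, x axis) of the 85 other FGF pathway genes by list (y axis) in brain, kidney and liver; filled points passed the limma threshold and open points did not. In brain 11 points are filled, in kidney 28 and in liver 19.

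Among the 15 other FGF ligands, 6 passed in liver (beside 22.9% of all features), 7 in kidney (46.7%, beside 39.5%) and 4 in brain (26.7%, beside 13.7%). In liver the endocrine Fgf15 was higher on 6 of 6 arrays, at 0.54, 0.38, 0.75, 1.24, 0.15 and 0.72 (mean 0.63 ± 0.37, limma adjusted p = 0.00281). Its spot was about equally bright in brain, kidney and liver, at percentiles of 55.9, 55.0 and 57.1. Whether that spot measures Fgf15 RNA was not tested. Fgf7, the keratinocyte growth factor, was lower on 6 of 6 liver arrays (-0.33 ± 0.12) and on 6 of 6 brain arrays (-0.40 ± 0.12). Fgf10 at -0.33 ± 0.16 and Fgf20 at -0.34 ± 0.13 were also lower on all 6 liver arrays. Fgf7 and Fgf20 passed in the lower direction in brain, kidney and liver, as did the heparan sulphate sulphotransferase gene Hs6st2. These were 3 of the 85 pathway genes with 1 direction in all 3 tissues, beside 2.81% of all features. The brain calls of Fgf20 and Hs6st2 ended without brain array 4, at -0.31 and -0.27, or without array 5, at -0.33 and -0.27. That of Hs6st2 also ended without array 1, 2, 3 or 6, at -0.20, -0.30, -0.30 and -0.28. The liver call of Hs6st2 (-0.35 ± 0.34) ended without liver array 1, 3, 4 or 6, at -0.36, -0.33, -0.33 and -0.25, and the kidney value of Fgf20 was -0.16 with 1 loess curve per array and did not pass.

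Kidney markers moved beside the kidney ratios that follow. Of 7 kidney markers 4 passed, all lower, beside 39.5% of all features, among them the tubule genes Umod at -0.77 and Slc34a1 at -1.14. The 7 had a median of -0.32 with array medians from -0.68 to -0.06. Of 7 markers of blood and leukocytes 1 passed in kidney, the haemoglobin gene Hba-a1 at -0.69. These 7 had a median of -0.08, and Alas2 stood at -0.08. The part of the kidney and blood markers in the kidney ratios of the receptors and pathway genes was not tested.

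In kidney Fgf18, which acts in bone and lung, was lower on 6 of 6 arrays (-0.43 ± 0.19, limma adjusted p = 0.000665), and stood at -0.88 without loess. Fgf5, which ends hair growth, was higher on 6 of 6 kidney arrays at 0.73 ± 0.37, but at 0.03 without loess. The Fgf5 spot was dim in kidney, at percentile 5.04. Of the 4 intracellular FGF homologous factors, which bind sodium channels and are not secreted, 2 passed in kidney (50.0%, beside 39.5% of all features). These were Fgf12 and Fgf13, lower at -0.45 ± 0.23 and -0.51 ± 0.21. Both passed in every setting in which they were measured, but their size moved, to -0.71 and -1.07 without loess and -0.84 and -1.12 with centred blocks.

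Heparan sulphate and its enzymes set how FGFs meet their receptors. Of 15 such enzymes 6 passed in kidney (beside 39.5% of all features), 3 in liver (20.0%, beside 22.9%) and 2 in brain (13.3%, beside 13.7%). Hs6st2 was lower on 6 of 6 kidney arrays, between -1.32 and -0.50 (mean -0.98 ± 0.29 or 1.97-fold lower, limma adjusted p = 5.62e-06). Extl2, which adds the sugar that starts or stops the chain, was lower in kidney at -0.59 ± 0.19, but at -0.15 without loess. Ext2, part of the polymerase, was higher on 6 of 6 brain arrays at 0.48 ± 0.23 (limma adjusted p = 0.00588). Of 17 co-receptors and binding proteins 5 passed in kidney (29.4%, beside 39.5% of all features), 4 in liver (23.5%, beside 22.9%) and 2 in brain (11.8%, beside 13.7%). The proteoglycan gene Gpc5 was higher on 6 of 6 liver arrays at 0.35 ± 0.14 (limma adjusted p = 0.00444).

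The 13 feedback inhibitors and target transcription factors, which read out FGF signalling, ran from -0.18 to 0.28 in liver. Spred2 was the 1 that passed there, at 0.28 ± 0.19, beside 22.9% of all features, and its call ended without array 1, 4 or 5 at 0.24, 0.27 and 0.22. In liver Dusp6 stood at -0.16 ± 0.28, Etv5 at 0.12 ± 0.06, Spry1 at 0.02 ± 0.11 and Spry4 at 0.01 ± 0.18, and none of these passed (limma adjusted p = 0.247, 0.18, 0.833 and 0.922). The liver signal of Spry1, Spry2 and Spry4 was dim, at percentiles of 1.89, 2.4 and 18.4, whereas Dusp6 lay at 62.6 and Etv5 at 48.4. Whether FGF signalling differed between the strains was not tested. In kidney Spry2 was lower on 6 of 6 arrays, at -0.85, -0.24, -0.76, -0.63, -2.31 and -0.03 (mean -0.80 ± 0.80, limma adjusted p = 0.00787). Array 5 was far below the others, and without it the mean was -0.50. With centred blocks it was -0.48. Etv4 was higher in kidney at 0.50 ± 0.26 (limma adjusted p = 0.000713), and at 0.31 without loess. Of 14 signal transducers, 4 passed in kidney (28.6%, beside 39.5% of all features) and 2 in liver (14.3%, beside 22.9%). In brain limma called 0 of 14, beside 13.7% of all features, with 2 at an unadjusted p under 0.05.

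The last list held 7 genes of the hepatic FGF15 and FGF21 axis. In liver Nr0b2, which encodes the bile acid repressor SHP, was higher on 6 of 6 arrays, at 0.70, 0.35, 0.90, 0.82, 1.05 and 0.49 (mean 0.72 ± 0.26 or 1.65-fold, limma adjusted p = 0.0003). Cyp7a1, the rate-limiting enzyme of bile acid synthesis, stood at -0.10 ± 0.08 and did not pass (limma adjusted p = 0.269). Cyp8b1, which makes cholic acid, was lower on 6 of 6 arrays at -0.25 ± 0.21 (limma adjusted p = 0.0389), and the call ended without array 2, 3, 4, 5 or 6 at -0.23, -0.29, -0.26, -0.19 and -0.25. The bile acid importer gene Slc10a1 was lower in kidney at -0.32 ± 0.12 (limma adjusted p = 0.00194). Of the 7 genes 2 passed in liver (28.6%, beside 22.9% of all features) and 2 in kidney (28.6%, beside 39.5%). In brain limma called 0 of the 7, beside 13.7% of all features, with 1 at an unadjusted p under 0.05.

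Differences of strain ratio between tissues were tested for the pathway genes by contrasts over the 18 arrays. For brain minus kidney 16 of 85 passed (18.8%) beside 22.7% of all features, for brain minus liver 5 (5.88%) beside 7.52%, and for kidney minus liver 15 (17.6%) beside 18.2%. Fgf15 differed between liver, at 0.63, and brain, at -0.62 ± 0.66 (difference -1.25, SE 0.24, limma adjusted p = 0.00112). It also differed between liver and kidney, at -0.31 ± 0.41 (difference -0.94, limma adjusted p = 0.00678). By itself the brain ratio of Fgf15 passed (limma adjusted p = 0.0406) with 5 of 6 arrays below 0, and that call ended without array 2, 4, 5 or 6, at -0.47, -0.64, -0.52 and -0.54. The kidney ratio did not pass (limma adjusted p = 0.0522) but did without kidney array 2, at -0.45. The strain ratio of Nr0b2 was higher in liver than in brain, with a difference of -0.81 (SE 0.11, limma adjusted p = 3.34e-05) and higher than in kidney, with -0.73 (limma adjusted p = 5.14e-05), each taken as the other tissue minus liver. The strain ratios of Spry2 and Hs6st2 were higher in brain than in kidney, by 1.08 (SE 0.24, limma adjusted p = 0.00257) and 0.71 (SE 0.15, limma adjusted p = 0.00137).

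Markers of other cell types were set beside the liver value of Fgf2, since endothelium and fibroblasts are known sources of it, and 22.9% of all features passed in liver. The 8 endothelial markers had a median strain ratio of -0.15 in liver, with array medians from -0.25 to 0.04, and 1 passed higher and 1 lower. The 8 markers of fibroblasts and smooth muscle had a median of -0.08, with array medians from -0.13 to 0.18, and 2 passed higher and 2 lower. The 7 markers of blood and leukocytes had a median of -0.01, with array medians from -0.18 to 0.15, and 1 passed, higher. Members went both ways, with Kdr at 0.27 and Flt1 at -0.27 in endothelium and Col3a1 at 0.34 in fibroblasts. Their part in the Fgf2 value was not tested.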

How the data were processed

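The deposited table held log2 ratios for 23040 spots on 18 arrays, DBA/2J over C57BL/6J. Per the labels, the authors extracted spot values with Spot and normalised them by print-tip lowess in limma (versions not given in the sources used here). This was not borne out by the table, in which 100.0% of values equalled the log2 of 1 whole number over another (tolerance 1e-12). They were therefore treated as raw ratios. The 1275 spots at 0 on every array were left out.

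The whole numbers were recovered by continued fractions, with the common factor of each spot estimated from the other arrays. In simulated data that factor was exact for 70.3% (brain), 70.7% (kidney) and 70.2% (liver) of values, each 1 spot on 1 array. The simulation drew log2 intensities with the SD of 0.4 that the recovery itself assumed. Ratios were normalised by print-tip loess (span 0.3, 4 iterations, 48 blocks of 480 spots) in limma 3.58.1 with R 4.3.3. Symbols came from the platform annotation, updated by Entrez identifier through a RefSeq table of GRCm38.p6, which matched 15964 spots. There were 16642 spots with 1 symbol, 134 with several and 4989 without. Spots of 1 symbol were averaged, and 1047 genes had more than 1 spot. The names were not tested against spot sequences.

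For each tissue the mean was tested against 0 (lmFit, eBayes), with Benjamini-Hochberg adjustment across 20218 features and a threshold of 0.05. In simulated data a ratio of 0.5 was recovered for 74.6% of changed features in brain, 85.1% in kidney and 73.1% in liver. Tissue contrasts used all 18 arrays. The genes and lists were chosen with earlier results of these data known. Named pathway genes were, per list and tissue, up to 4 genes that passed, had 1 sign on 6 arrays and had the largest means, and per pair of tissues the 3 largest differences. Further genes named were Dusp6, Etv5, Spry1, Spry4 and Cyp7a1, chosen after their values were seen. Alternatives were no loess with arrays centred on their medians, block centring, 1 loess curve per array, intensity left unrestored, scaling between arrays, leaving out the dimmer 25% of features, the brightest spot per gene, a replicate block, and leaving out each array.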

Additional observations from a re-analysis of the deposited data

Results flagged for a closer look

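In 5 of 68 groups of 6 arrays, 1 array lay far from the others, where chance gives about 1 in 20. Fgfr1 in liver stood at 1.13 on array 4, the highest. On the same array Fgf11 was the highest at 0.77 and Fgf7 the lowest at -0.57. Hs6st2 in brain was lowest on array 1, at -0.63. Spry2 in kidney was lowest on array 5, at -2.31.

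The limma contrasts between tissues with the largest differences, up to 3 pathway genes per pair of tissues, belonged to 6 genes. Brain minus kidney gave 1.08 for Spry2, 0.71 for Hs6st2 and -0.61 for Etv4 (adjusted p = 0.00342). The Etv4 difference was -0.33 without loess and no longer passed. Brain minus liver gave -1.25 for Fgf15, -0.81 for Nr0b2 and 0.57 for Plcg1, of which the Plcg1 value changed sign in other settings. Kidney minus liver gave -0.94 for Fgf15, -0.73 for Nr0b2 and -0.73 for Spry2 (adjusted p = 0.0357). The Spry2 difference no longer passed without kidney array 1, 3 or 5, at -0.72, -0.74 and -0.43, or without liver array 1, 2, 3, 4 or 5, at -0.66, -0.72, -0.74, -0.73 and -0.70. Fgfr2 was below 0 on every brain array and above 0 on every kidney array, a difference of -0.58 that was not tested. Of all features 22.7% passed for brain minus kidney.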

How the results depend on the processing

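The liver ratio of Fgf2 kept its direction under every alternative tried. In brain Fgf2 was -0.28 with blocks centred on their medians and -0.02 with 1 loess curve per array, and in kidney -0.55 with centred blocks. Without loess, pathway genes past the threshold numbered 58 in kidney, 32 for brain minus kidney and 42 for kidney minus liver. With centred blocks they numbered 60, 35 and 41. With intensity left unrestored they were 25 for brain minus kidney and 25 for kidney minus liver. With 1 loess curve per array brain had 6 and brain minus liver 3. Leaving out the dimmer 25% of features gave 17 in kidney and 3 for brain minus liver. Leaving out 1 array gave 2 to 8 genes in brain, 22 to 27 in kidney and 9 to 20 in liver. For the contrasts it gave 13 to 18 for brain minus kidney, 4 to 6 for brain minus liver and 11 to 16 for kidney minus liver.

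Of the calls of named pathway genes, 2 of 8 held under every alternative in brain, 7 of 21 did so in kidney, and liver kept 6 of 15. Signs turned without loess for kidney Fgf6 (-0.15), Gpc5 (-0.34), Map2k1 (0.61), Ppargc1a (0.18), Shc1 (-0.10) and Sos1 (-0.28), for liver Plcg1 (0.44) and for Plcg1 in brain minus liver (-0.25). With centred blocks kidney Fgf6 was -0.34, Gpc5 -0.28, Map2k1 0.69, Ppargc1a 0.03, Shc1 -0.26, Sos1 -0.19 and Sulf2 -0.01. Liver Plcg1 was then 0.39, and its difference between brain and liver -0.23. With 1 loess curve per array these last values were 0.36 and -0.03. With intensity left unrestored kidney Ext1 was 0.04, Gpc5 -0.10 and Sos1 -0.02. With the brightest spot per gene kidney Gpc6 was 0.21. The kidney value of 4930594O21Rik, beside Fgf2, was 0.01 with 1 loess curve per array. The cause of these changes was not tested.

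Replicate numbers did not pair the arrays: deviations of same-numbered arrays correlated by -0.231 to 0.157, and 3 of 18 arrays correlated best with their own number. With a replicate block 14 pathway genes passed for brain minus kidney, 5 for brain minus liver and 16 for kidney minus liver. Dim spots limit the precision of their ratios, and the table gives no background to set them against. Among them are Fgf21, Fgfr4, the C57BL/6J channel of Fgf2, and in kidney Fgf5, Fgf12 and Fgf13.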
